A study of Mus musculus with 6 samples.

Results

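The tight junction genes described here are 9 genes of mouse cheek skin, taken by symbol from a table of 19309 genes. They comprise 5 claudins (Cldn1, Cldn3, Cldn4, Cldn7 and Cldn23), the membrane protein occludin (Ocln) and 3 cytoplasmic scaffolds (Tjp1, Tjp3 and Cgn). All 9 had a row in the table, and 8 passed the filter on low counts. Cldn7, with 5 to 15 estimated counts in a library, did not pass and is described by its counts.

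Tight junctions seal the space between neighbouring epithelial cells, and in the epidermis they lie in the granular layer, below the cornified layer. Claudins are membrane proteins with 4 passes through the membrane, whose extracellular loops pair across the gap and set how tight and how ion-selective the seal is. Occludin is an unrelated membrane protein of the same strands, and zonula occludens proteins and cingulin bind their cytoplasmic side and tie them to actin. Mice without claudin 1 lose water through the skin and die soon after birth, so the claudins are counted among the barrier components of the skin.

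RNA was sequenced from both cheeks of 3 healthy C57BL/6 mice aged 6 to 8 weeks, which gave 6 libraries. In the AEW group (3 libraries) a shaved area of the right cheek was wiped with equal volumes of acetone and ether for 30 s and then with distilled water for 30 s, the dry skin model of the study. In the vehicle group (3 libraries) the left cheek of the same mice was wiped with distilled water for 60 s. Treatment was given 2 times a day for 12 days, with collection on day 12. The labels name no genetic change, and the side of the face coincided with the treatment in every mouse. Estimated counts per library were 19120764 to 19506491 in AEW skin and 18449207 to 18522830 in vehicle skin. The labelled tissue was matched by keratinocyte transcripts, with all 9 general keratinocyte markers detected. All 14 skeletal muscle markers were detected too. One library stood apart, since the 8 hair follicle markers summed to 1811 CPM (counts scaled to a common library size) in the AEW cheek of mouse 1, against 34.0 and 491 CPM in the other AEW cheeks and 277 to 314 CPM in the vehicle cheeks.

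Cldn3 and Cldn4 are neighbours in RefSeq, where no other annotated gene lies wholly within the span they cover. Wbscr25 overlaps Cldn3 and reaches past that span. Their log2 fold changes below have opposite signs, although neither passed the test, and the 250 bases before each start site are shown for comparison. The windows come from RefSeq for GRCm38.p6, chr5:134946935-134947184 on the minus strand for Cldn4 and chr5:134985964-134986213 on the plus strand for Cldn3. Capitals mark matches, on either strand, to TGANTCA (the AP-1 motif), CAGGTG (an E-box that Snail proteins bind), AACCGGTT (a grainyhead motif) or TATAAA (the TATA box).
Cldn4: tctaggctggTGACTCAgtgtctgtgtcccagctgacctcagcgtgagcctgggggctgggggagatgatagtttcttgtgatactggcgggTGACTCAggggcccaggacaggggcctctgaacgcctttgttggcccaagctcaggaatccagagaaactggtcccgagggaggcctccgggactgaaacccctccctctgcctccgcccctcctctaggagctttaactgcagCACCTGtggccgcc
Cldn3: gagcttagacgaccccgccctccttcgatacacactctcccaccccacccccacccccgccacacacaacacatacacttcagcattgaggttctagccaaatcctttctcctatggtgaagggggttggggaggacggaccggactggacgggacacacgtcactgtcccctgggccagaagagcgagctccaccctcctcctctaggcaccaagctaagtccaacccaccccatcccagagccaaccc
The Cldn4 window held TGACTCA 2 times, starting 240 and 158 bases before the start site, and CACCTG, the reverse complement of CAGGTG, starting 14 bases before it. The Cldn3 window held none of the 4 motifs. Of the 32851 windows of this length that were searched, 6.75% held TGANTCA at least once and 0.338% held it 2 or more times. The windows of a single chromosome were left out of this search. Shares for the other motifs were 17.2% for CAGGTG, 0.116% for AACCGGTT and 12.4% for TATAAA. Windows were matched for 8 of the 9 genes, all but Cldn23. Among the 11 windows of those 8 genes, TGANTCA was found for Cldn4 only, CAGGTG for Cldn4, Cldn7, Ocln and Tjp3, and AACCGGTT and TATAAA for none. Counted by gene, 7.82% of 27025 genes held TGANTCA and 19.4% held CAGGTG in any of their windows. These letters are a description of the sequence, and no binding was measured.

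Levels of the genes relative to one another were read from the authors' TPM, which is scaled for gene length. Cldn1 was the most abundant of the 9, at 168 ± 15.3 TPM in AEW skin and 146 ± 22.8 TPM in vehicle skin (SD, n = 3 each). Cldn4 followed at 70.1 ± 16.8 TPM in AEW skin and 46.0 ± 3.40 TPM in vehicle skin, and Tjp1 at 24.8 ± 2.25 TPM in AEW skin and 24.1 ± 2.57 TPM in vehicle skin. The ranges of these 3 genes did not overlap one another in either group. Below them the order in vehicle skin was Tjp3, Cldn23, Cgn, Ocln and Cldn3, with means from 21.1 to 10.04 TPM. There Tjp1 and Tjp3, Tjp3 and Cldn23, and Ocln and Cldn3 overlapped in range, whereas Cldn23 stood above Cgn and Cgn above Ocln in all libraries. In AEW skin the order was Tjp3, Ocln, Cldn23, Cgn and Cldn3, with means from 19.0 to 7.18 TPM, and every neighbour overlapped with the next. Cldn7 was the lowest in both groups, at 0.760 ± 0.296 TPM in AEW skin and 0.520 ± 0.157 TPM in vehicle skin.

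Between AEW and vehicle skin, none of the 8 tested genes passed the test across all genes, although 11.6% of the 15109 tested genes did. The test was edgeR's quasi-likelihood test at a Benjamini-Hochberg adjusted p of 0.05. At an unadjusted p under 0.05 in the same test Cldn4 was higher in AEW skin, and Cldn3 and Cgn were lower. That is 1 higher and 2 lower of 8, near the shares over all tested genes, 14.8% higher and 16% lower. With the mouse as a block in edgeR, 0 of the 8 genes were called (1 higher and 2 lower at an unadjusted p under 0.05), against 5.88% of all tested genes at the adjusted threshold (1.99% higher and 3.89% lower) and 12.9% higher and 14.6% lower at the unadjusted one. DESeq2 called 1 of the 9 genes, Cldn4, as higher, where it called 8.85% of all genes with an adjusted p higher and 9.77% lower. Limma on log2(TPM + 1) called 0, against 5.11% higher and 4.86% lower over all genes. At an unadjusted p under 0.05 limma gave 1 higher and 1 lower, against 17.6% and 12.8% over all genes. The median log2 fold change of the 8 genes was -0.12, against 0.014 over all tested genes. In bulk tissue, fewer cells of a type and less RNA per cell cannot be told apart, which holds for every difference below.

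**Figure D1:**
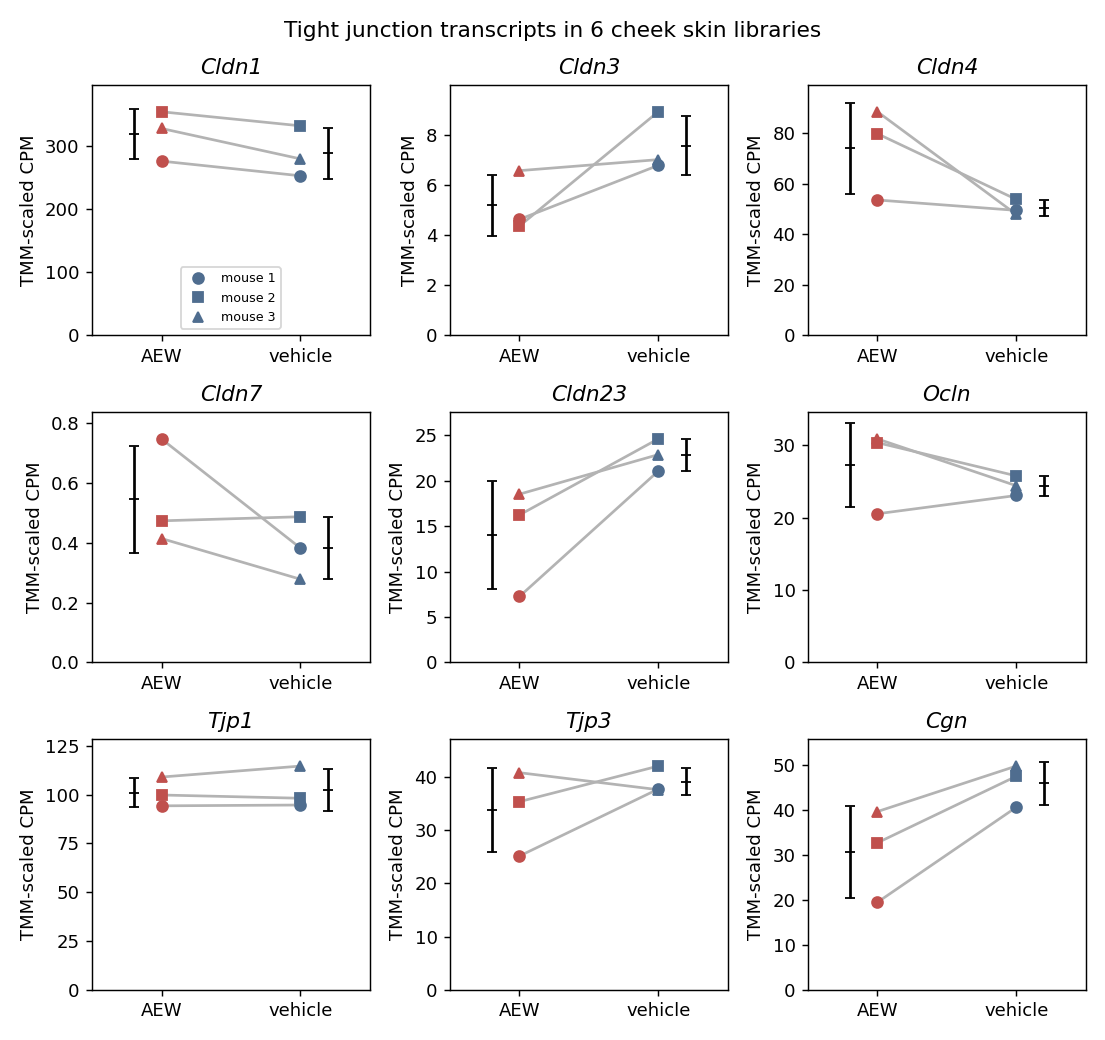
TMM-scaled CPM (vertical axes, from 0) of the 9 tight junction genes in the AEW and vehicle cheek of 3 mice; grey lines join the cheeks of a mouse, and black bars give the mean and SD of 3 libraries. All 3 AEW values lie below all 3 vehicle values for Cldn3, Cldn23 and Cgn, and the groups overlap for the others.

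Cldn4 (gene 12740), a claudin of the upper epidermal layers and of many other epithelia, had the smallest p of the 8 tested genes. Its levels were 53.5, 79.8 and 88.4 CPM in the AEW cheeks of mice 1, 2 and 3, against 49.4, 53.8 and 47.9 CPM in their vehicle cheeks. The AEW cheeks of mice 2 and 3 were above every vehicle cheek, and that of mouse 1 lay within the vehicle range. The log2 fold change was 0.55 (SE 0.18, 95% interval 0.12 to 0.98, adjusted p = 0.0926, edgeR). DESeq2 gave 0.56 (adjusted p = 0.0306). Without the AEW library of mouse 1 the edgeR value was 0.73 (adjusted p = 0.00717), and a mouse-blocked fit of mice 2 and 3 alone gave 0.73 (adjusted p = 0.00465). That last fit was chosen once the values were known. It called 1922 genes higher and 1588 lower of 15163 tested, more in each direction than the main fit. Of the 8 tight junction genes it called 1 higher and 2 lower. Over all 17 alternatives the log2 fold change of Cldn4 ran from 0.34 to 0.73, with adjusted p from 0.00465 to 0.506.

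Cldn3 (gene 12739), a sealing claudin of simple epithelia that is sparse in epidermis, had lower values in AEW skin without passing the test. It had 4.62, 4.36 and 6.57 CPM in AEW cheeks, against 6.77, 8.91 and 7.005 CPM in vehicle cheeks of mice 1, 2 and 3. The groups did not overlap, but the highest AEW value lay close to the lowest vehicle value, and the AEW to vehicle ratio in mouse 3 was 0.937 (95% exact binomial interval 0.727 to 1.21). The log2 fold change was -0.55 (SE 0.22, 95% interval -1.06 to -0.027, adjusted p = 0.146, edgeR). The span of Wbscr25 overlaps that of Cldn3 in RefSeq, and whether their exons overlap was not examined. With the strand of the libraries not given, reads from any shared exon could not be told apart.

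Cldn23 (gene 71908), a claudin of differentiating keratinocytes and gut, had 7.26, 16.2 and 18.5 CPM in AEW cheeks, against 21.0, 24.6 and 22.8 CPM in vehicle cheeks. Every AEW value was below every vehicle value, and the AEW cheek of mouse 1 was far below the other AEW cheeks. The log2 fold change was -0.71 (SE 0.31, 95% interval -1.44 to 0.029, adjusted p = 0.177, edgeR). Without the AEW library of mouse 1 it was -0.40 (adjusted p = 0.0588). The mouse-blocked fit of mice 2 and 3 alone, chosen once the values were known, gave -0.45 (adjusted p = 0.0398). That fit called 1922 genes higher and 1588 lower of 15163 tested.

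Cldn1 (gene 12737), the main claudin of the epidermis, had 277, 355 and 328 CPM in AEW cheeks, against 253, 333 and 280.3 CPM in vehicle cheeks. Each AEW cheek was slightly above the other cheek of its mouse, and the groups overlapped. The log2 fold change was 0.15 (SE 0.14, 95% interval -0.19 to 0.48, adjusted p = 0.519, edgeR), and leaving out 1 library moved it between 0.062 (vehicle mouse 1) and 0.26 (vehicle mouse 2), with 0.067 without AEW mouse 2 and 0.23 without AEW mouse 1. Cldn7 (gene 53624), a claudin of simple epithelia, had 15, 9 and 8 estimated counts in AEW cheeks, against 7, 9 and 5 in vehicle cheeks. Its AEW to vehicle ratios in mice 1, 2 and 3 were 1.95, 0.972 and 1.49, and the interval of each included 1, so no difference was detectable at this depth.

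Ocln (gene 18260) encodes occludin, which takes part in the organisation of the strands. It had 20.5, 30.3 and 30.9 CPM in AEW cheeks, against 23.1, 25.8 and 24.4 CPM in vehicle cheeks. The AEW cheeks of mice 2 and 3 were above all vehicle cheeks, and that of mouse 1 was below them. The log2 fold change was 0.16 (SE 0.16, 95% interval -0.23 to 0.55, adjusted p = 0.553, edgeR). Without the AEW library of mouse 1 it was 0.32 (adjusted p = 0.0554), without that of mouse 2 0.072 (adjusted p = 0.835) and without that of mouse 3 0.060 (adjusted p = 0.858).

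Among the scaffolds, Cgn (gene 70737) encodes cingulin, which links the junction to actin and myosin. It had 19.4, 32.7 and 39.6 CPM in AEW cheeks, against 40.5, 47.4 and 49.7 CPM in vehicle cheeks. All AEW values were below all vehicle values, and the lowest was again that of mouse 1. The log2 fold change was -0.59 (SE 0.24, 95% interval -1.16 to -0.016, adjusted p = 0.154, edgeR). It was -0.35 without the AEW library of mouse 1 (adjusted p = 0.105). In the mouse-blocked fit of mice 2 and 3 alone, chosen once the values were known, it was -0.43 (adjusted p = 0.0145). That fit called 1588 of 15163 tested genes lower.

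Tjp3 (gene 27375) and Tjp1 (gene 21872) encode the zonula occludens proteins ZO-3 and ZO-1, which bind the tails of claudins. Tjp3 had 25.2, 35.4 and 40.8 CPM in AEW cheeks, against 37.7, 42.1 and 37.6 CPM in vehicle cheeks. The groups overlapped, with mouse 1 lowest in AEW skin, and the log2 fold change was -0.21 (SE 0.17, adjusted p = 0.445, edgeR). It was -0.048 without the AEW library of mouse 1 (adjusted p = 0.769). Tjp3 overlaps Apba3 in RefSeq, and Ocln and Cgn also overlap other annotated genes, so the same limit holds. Tjp1 had 94.3, 99.9 and 109 CPM in AEW cheeks, against 94.7, 98.2 and 115 CPM in vehicle cheeks. Its log2 fold change of -0.021 had a 95% interval from -0.27 to 0.23 (adjusted p = 0.915, edgeR), the narrowest interval of the 8, and its sign turned on the TPM scale (0.042, limma).

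The side of each gene was then read within mice. Cldn1 and Cldn4 were higher in the AEW cheek of all 3 mice, and Cldn3, Cldn23 and Cgn were lower in all 3, so 5 of 8 tested genes had 1 direction in all mice. Of all tested genes 25.3% were higher and 26.9% lower in all 3 mice, 52.3% together. Cldn3, Cldn23 and Cgn were also the 3 whose groups did not overlap with AEW below, which 19.5% of all tested genes did. None had AEW above, against 17.4% of all tested genes, and 36.9% did not overlap in either direction. Both counts follow the libraries behind the fit and add no test. The AEW to vehicle ratio was lowest in mouse 1 for 5 of the 8 genes (Cldn4, Cldn23, Ocln, Tjp3 and Cgn) and highest in mouse 3 for 7, all but Tjp1. The order of the mice was not counted over all tested genes, so it may not be particular to these genes. For Cldn4 the ratios of mice 1, 2 and 3 were 1.08, 1.48 and 1.85. For Cldn23 they were 0.345, 0.660 and 0.810, and for Cgn 0.480, 0.689 and 0.797. The AEW cheek of mouse 1 was also the one with the high hair follicle sum, and it had the lowest summed suprabasal keratinocyte markers of the AEW cheeks (12284 CPM, against 22203 and 19097 CPM). The part of either in these ratios was not tested.

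**Figure D2:**
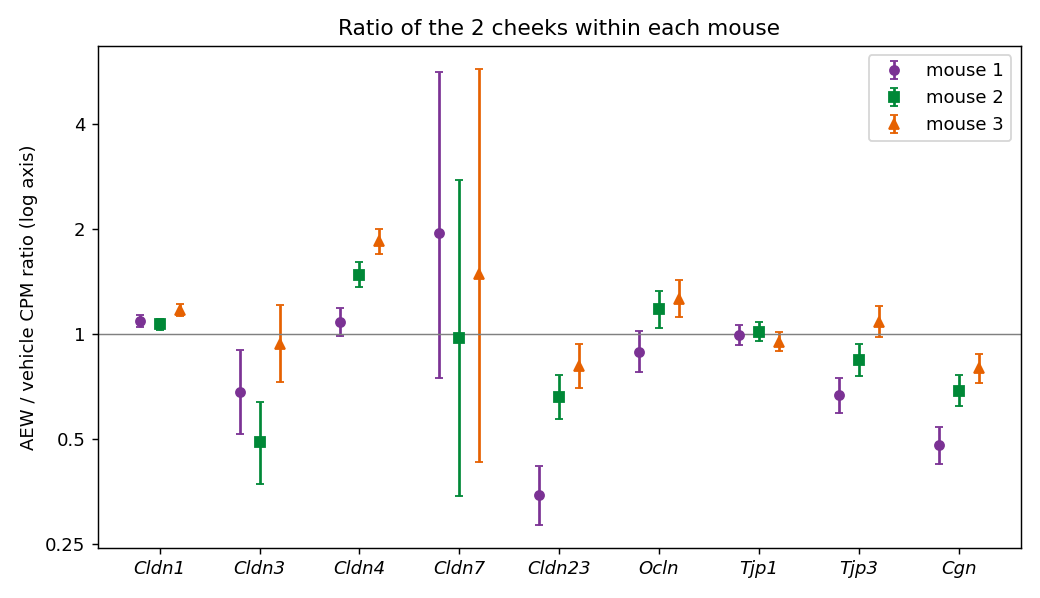
AEW to vehicle ratio of CPM within each mouse (vertical axis, log scale) for the 9 genes; points are mice and bars are 95% exact binomial intervals, which cover counting error only. Cldn4 lies between 1.08 and 1.85 and Cldn23 between 0.345 and 0.810, with mouse 1 lowest for both.

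The makeup of the claudin transcripts was compared on the authors' TPM, summed over the 22 claudins in the table. The sum was 326 ± 28.2 TPM in AEW skin and 308 ± 24.4 TPM in vehicle skin (SD, n = 3 each), a difference within the spread between replicates (two-sided exact permutation p = 0.5). Cldn4 made up 17.5%, 22.2% and 24.2% of the sum in the AEW cheeks of mice 1, 2 and 3, against 15.7%, 15.1% and 14.1% in their vehicle cheeks. Cldn23 made up 2.33%, 4.43% and 4.96% in AEW cheeks, against 6.54%, 6.74% and 6.58% in vehicle cheeks. For Cldn4 all AEW shares were above, and for Cldn23 all were below, the vehicle shares.

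Cldn3 made up 2.19 ± 0.42% in AEW skin and 3.25 ± 0.34% in vehicle skin. Cldn1 made up 51.5 ± 2.78% in AEW skin and 47.2 ± 3.79% in vehicle skin, and these groups overlapped. The ratio of Cldn4 to Cldn23 counts was 7.38, 4.92 and 4.78 in AEW cheeks, against 2.35, 2.19 and 2.09 in vehicle cheeks. It was thus higher in each AEW cheek than in any vehicle cheek, although these genes were paired with their values in view. The ratio of Cldn4 to Cldn1 counts overlapped, at 0.194, 0.225 and 0.269 in AEW cheeks, against 0.195, 0.162 and 0.171 in vehicle cheeks (two-sided exact permutation p = 0.2, adjusted 0.257). For the Cldn4, Cldn23 and Cldn3 shares and for the ratio of Cldn4 to Cldn23 counts the two-sided exact permutation p was 0.1. That is the smallest that 3 libraries against 3 allow, and it was 0.15 when adjusted over the 9 values tested in this way. All these permutations treated the libraries as unpaired, although both cheeks of each mouse were sequenced.

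**Figure D3:**
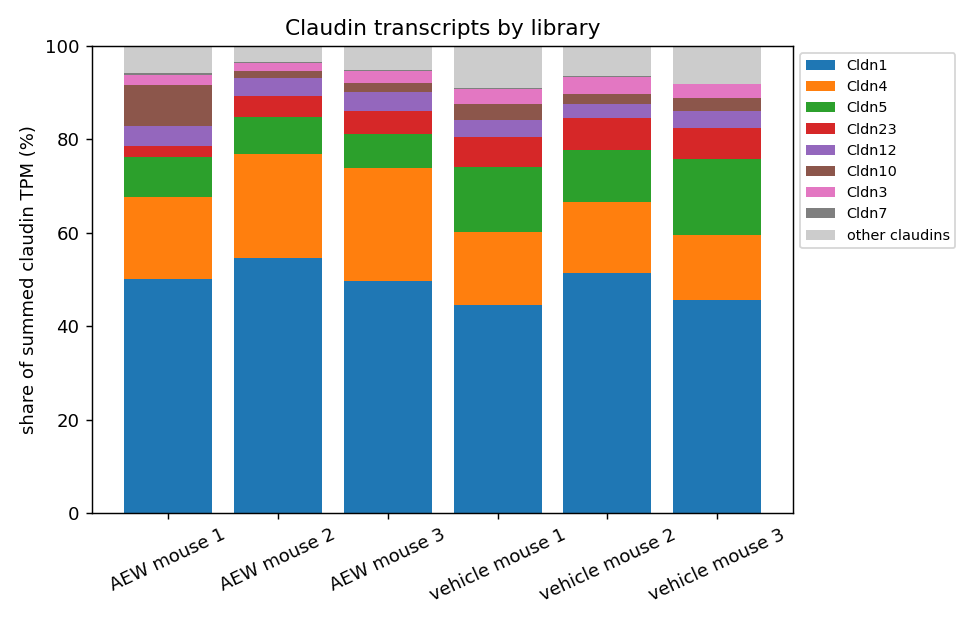
Share of the summed TPM of 22 claudins (vertical axis, %) in each library, AEW cheeks on the left and vehicle cheeks on the right; colours are claudins. Cldn1 makes up 44.4% to 54.7%, and Cldn4 has 17.5% to 24.2% in AEW cheeks and 14.1% to 15.7% in vehicle cheeks.

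The genes were also set against Cdh1, which encodes the epithelial adherens junction protein E-cadherin. Cdh1 itself had 279 ± 18.9 CPM in AEW skin and 229 ± 47.5 CPM in vehicle skin (adjusted p = 0.287, edgeR). The ratio of Cgn to Cdh1 counts was 0.0756, 0.112 and 0.138 in AEW cheeks, against 0.232, 0.180 and 0.199 in vehicle cheeks. That of Cldn23 was 0.0282, 0.0554 and 0.0646 in AEW cheeks, against 0.120, 0.0933 and 0.0916 in vehicle cheeks. For both genes the AEW ratios were all below the vehicle ratios. The same held for Cldn3 and Tjp3, so 4 of the 8 tested genes had AEW below and 0 had AEW above. Of all tested genes 30.7% had AEW below, 3.16% above and 33.9% either. Without the division the shares were 19.5% below and 17.4% above, so dividing by Cdh1 lowered AEW values across the table and the step from 3 to 4 genes is not particular to these genes. The Cldn4 ratio overlapped between groups, at 0.263 ± 0.051 in AEW skin and 0.226 ± 0.049 in vehicle skin, as did that of Cldn1, at 1.15 ± 0.069 in AEW skin and 1.28 ± 0.16 in vehicle skin.

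Of 17 other claudins in the table, 8 passed the filter on low counts, and 6 of these had negative log2 fold changes. The test gave 1 lower and 0 higher (5 lower and 0 higher at an unadjusted p under 0.05), with a median log2 fold change of -0.65. Over all tested genes 6.8% were lower and 4.85% higher, and at an unadjusted p under 0.05 16% were lower and 14.8% higher. DESeq2 called 3 lower and 0 higher of the 9 with an adjusted p, and limma on log2(TPM + 1) called 1 lower. Cldn5, the claudin of blood vessel endothelium, fell to 21.2 ± 0.82 CPM in AEW skin, against 35.8 ± 6.12 CPM in vehicle skin (log2 fold change -0.76, SE 0.13, adjusted p = 0.0198, edgeR). It was not called in the mouse-blocked fit (adjusted p = 0.0511). The 7 endothelial markers, Cldn5 among them, summed to 264 to 320 CPM in AEW skin and 350 to 479 CPM in vehicle skin. In mice 1, 2 and 3 the AEW to vehicle ratio of this sum was 0.633, 0.915 and 0.645. Of the 7 markers, 6 had negative log2 fold changes and 2 were called lower. Vwf was level, with means of 43.8 CPM in AEW skin and 43.3 CPM in vehicle skin. The part of endothelial cells in the Cldn5 difference was not tested.

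Cldn15, Cldn22 and Cldn11 were at -0.84, -1.76 and -0.66 on the log2 scale, and none passed (adjusted p = 0.0548, 0.0572 and 0.122, edgeR). The AEW cheek of mouse 1 also stood apart for Cldn10, a claudin chosen here after its values were seen, at 13.6 CPM against 2.63 and 3.67 CPM in the other AEW cheeks and 3.89 to 5.63 CPM in vehicle cheeks. Leaving out the AEW library of mouse 2 or the vehicle library of mouse 1 or 3 left 0 of these claudins lower, and leaving out the vehicle library of mouse 2 left 3 lower.

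Of 10 other membrane proteins of the junction, 1 was lower and 0 higher (2 and 2 at an unadjusted p under 0.05), with a median log2 fold change of 0.0068. These counts are near the shares of 6.8% lower and 4.85% higher, and 16% and 14.8% unadjusted, over all tested genes. DESeq2 and limma each called 1 lower and 0 higher. Jam2, a junctional adhesion molecule of vessels and lymphatics, fell to 45.8 ± 6.47 CPM in AEW skin, against 77.9 ± 9.47 CPM in vehicle skin (log2 fold change -0.77, adjusted p = 0.0214, edgeR). It was not called in the mouse-blocked fit (adjusted p = 0.0635). Its relative Jam3 had a log2 fold change of -0.36 (adjusted p = 0.101). Crb3, a polarity protein of epithelia, and Cxadr, an adhesion molecule and virus receptor, had log2 fold changes of 0.32 and 0.47, each with an adjusted p of 0.136. The call was lost without the AEW library of mouse 3 or the vehicle library of mouse 1 or 3, each leaving 0 lower.

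Of 20 other scaffolds and polarity proteins, 5 were lower and 0 higher (7 and 3 at an unadjusted p under 0.05), with a median log2 fold change of -0.097. The same shares over all tested genes were 6.8% lower and 4.85% higher, and 16% and 14.8% unadjusted. DESeq2 called 7 lower, limma 1 lower and the mouse-blocked fit 2 lower, with 0 higher in each. Amot, which encodes angiomotin, a junctional scaffold of the Hippo pathway, fell to 20.2 ± 1.26 CPM in AEW skin, against 45.3 ± 10.3 CPM in vehicle skin (log2 fold change -1.16, adjusted p = 0.0126, edgeR). Cgnl1, the paralogue of cingulin, fell by 0.53 on the log2 scale (adjusted p = 0.029). Prkcz, an atypical protein kinase C, and Amotl1 fell by 0.59 and 0.41 on the log2 scale (adjusted p = 0.0337 and 0.0443), and neither was called in the mouse-blocked fit (adjusted p = 0.0829 and 0.0699). The remaining lower gene was Mpp5, which lay outside the naming rule and was picked for its call, at -0.35 on the log2 scale (adjusted p = 0.046, and 0.102 in the mouse-blocked fit). The count of lower genes was 1 without the AEW library of mouse 2 or 3 or the vehicle library of mouse 1 or 3, and 2 without the vehicle library of mouse 2. The count of higher genes was 2 without the AEW library of mouse 1.

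Adherens junction genes, which anchor neighbouring cells below the tight junction, contained 3 higher and 0 lower of 10 tested (5 and 0 at an unadjusted p under 0.05), with a median log2 fold change of 0.32. Over all tested genes 4.85% were higher and 6.8% lower, and 14.8% and 16% unadjusted. DESeq2 called 4 higher and limma 2, with 0 lower in each, and the mouse-blocked fit called 0. Nectin1, a cell adhesion molecule, rose to 102 ± 1.80 CPM in AEW skin, against 67.0 ± 10.1 CPM in vehicle skin (log2 fold change 0.61, adjusted p = 0.0276, edgeR, and adjusted p = 0.054 in the mouse-blocked fit). Cdh3, the P-cadherin of basal and hair follicle keratinocytes, had 38.3 ± 17.99 CPM in AEW skin and 14.8 ± 1.98 CPM in vehicle skin (log2 fold change 1.37, adjusted p = 0.0391, and 0.099 in the mouse-blocked fit). Its highest value, 58.6 CPM, was in the AEW cheek of mouse 1. Ctnnd1, the p120 catenin gene, had a log2 fold change of 0.41 (adjusted p = 0.0442, and 0.0799 in the mouse-blocked fit), and Nectin4 one of 0.36 (adjusted p = 0.114). The count of higher genes was 0 without the AEW library of mouse 3 or the vehicle library of mouse 1 or 3, and 1 without the AEW or the vehicle library of mouse 2.

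Among 11 transcription regulators of epithelial identity, 1 was higher and 0 lower (6 and 1 at an unadjusted p under 0.05), with a median log2 fold change of 0.36. Over all tested genes the shares were 4.85% higher and 6.8% lower, and 14.8% and 16% unadjusted. The 1 of 11 higher at the adjusted threshold is thus near the background, and the 6 of 11 at the unadjusted one is above it. The list was not tested as a set. DESeq2 called 3 higher and 1 lower, limma 1 higher and 0 lower, and the mouse-blocked fit 2 higher and 0 lower. Of all genes these fits called 8.85%, 5.11% and 1.99% higher and 9.77%, 4.86% and 3.89% lower. Ovol1, a zinc finger regulator of keratinocyte differentiation, rose to 103 ± 17.96 CPM in AEW skin, against 48.2 ± 10.6 CPM in vehicle skin (log2 fold change 1.10, adjusted p = 0.0206, edgeR). Grhl3, a grainyhead factor needed for the skin barrier in mice, had a log2 fold change of 0.84 (adjusted p = 0.069, and 0.0498 in the mouse-blocked fit). The repressors Zeb1 and Snai2 had log2 fold changes of -0.45 and 0.43 (adjusted p = 0.0817 and 0.089). The count of higher genes was 2 without the AEW library of mouse 1, and 0 without the AEW library of mouse 2 or 3 or the vehicle library of mouse 1 or 3.

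**Figure D4:**
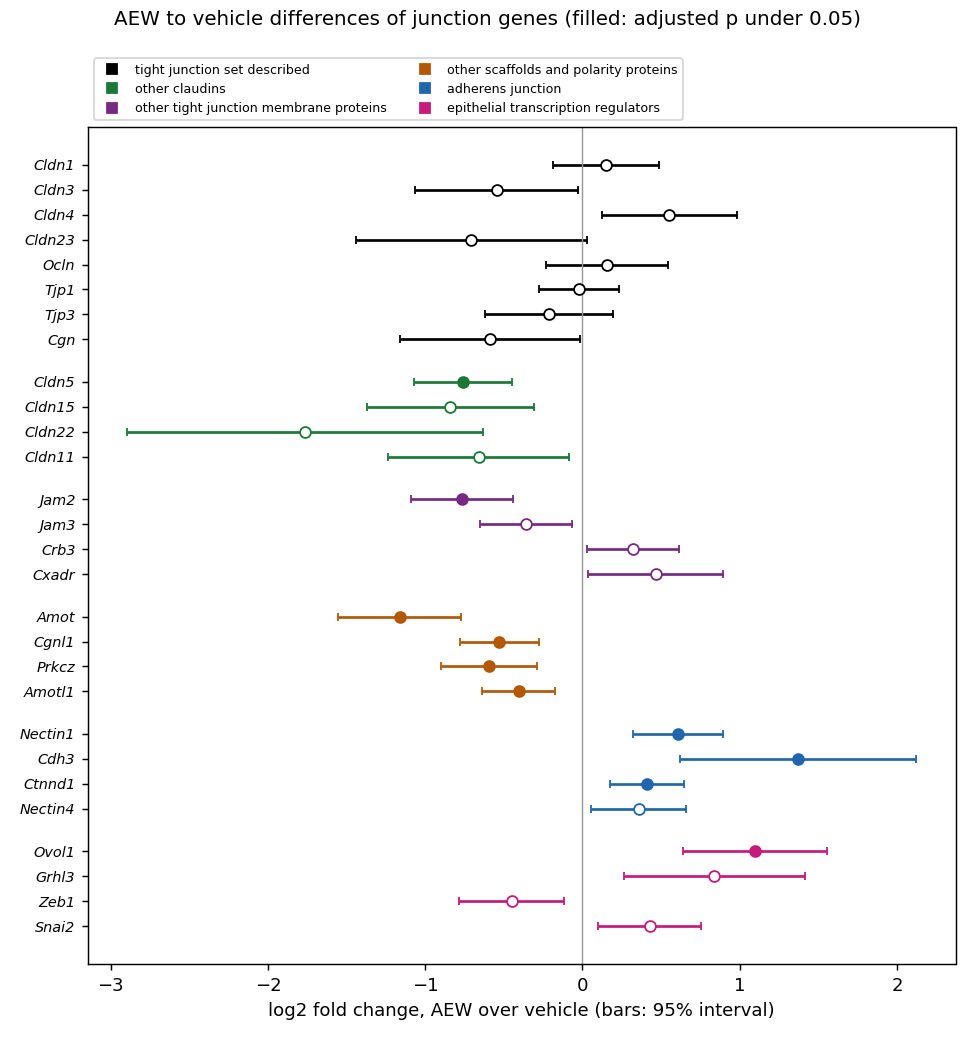
Log2 fold changes, AEW over vehicle (horizontal axis), with 95% intervals for the 8 tested tight junction genes and the 4 genes with the smallest p of each other list; colours are lists, and filled points passed an adjusted p of 0.05 in edgeR. Of the 8, Cldn4 lies highest at 0.55 and Cldn23 lowest at -0.71, and none is filled.

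The genes whose pattern over the 6 libraries came closest to that of Cldn4 were Zswim4, Thop1, Lpin3, Ankrd37 and Pld3. Likeness was the root mean square distance of log2 CPM after each gene's own mean was subtracted, and it ran from 0.054 to 0.065 for these 5 of 13755 genes compared. Since they were chosen for this pattern, a group difference like that of Cldn4 follows from the choice and adds no evidence. Zswim4, Ankrd37 and Pld3 were not called (adjusted p = 0.117, 0.161 and 0.0873, edgeR). Thop1, which encodes a cytosolic oligopeptidase, had 103 ± 19.0 CPM in AEW skin, against 69.3 ± 3.91 CPM in vehicle skin (adjusted p = 0.0491, edgeR). Lpin3, which encodes a phosphatidate phosphatase of the lipin family, had 29.8 ± 6.67 CPM in AEW skin and 20.8 ± 0.92 CPM in vehicle skin (adjusted p = 0.091, edgeR).

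Marker lists of the cell types in the tissue differed between the groups in several cases. Skeletal muscle markers summed to 14434 to 20423 CPM in AEW skin and 33915 to 50074 CPM in vehicle skin. All 14 had negative log2 fold changes and 12 were called lower, against 6.8% of all tested genes. Mylpf and Pvalb were at -1.63 and -1.51 on the log2 scale (adjusted p = 0.00478 and 0.00819, edgeR). Sebaceous gland markers summed to 7146 to 8067 CPM in AEW skin and 8151 to 10582 CPM in vehicle skin, although the median over these 8 genes was 0.44. Most of each sum was Scd1, with means of 5332 CPM in AEW skin and 7794 CPM in vehicle skin. Scd1 was not called (adjusted p = 0.0679, edgeR), and Mgst1 was called lower (adjusted p = 0.0323, and 0.0669 in the mouse-blocked fit). Of the 8 genes, 5 had positive log2 fold changes, with 0 called higher. The sum therefore does not show a fall across the list. The 5 adipocyte markers summed to 900 to 1144 CPM in AEW skin and 1173 to 2006 CPM in vehicle skin, with Adipoq lower (adjusted p = 0.0399, and 0.114 in the mouse-blocked fit) and Fabp4 not called (adjusted p = 0.0672). Emcn was the other endothelial gene called lower (adjusted p = 0.0173).

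The listed salivary acinar markers summed to 59.1 to 66.1 CPM in AEW skin and 84.7 to 96.7 CPM in vehicle skin. Most of this was Prlr (means 39.9 CPM in AEW and 50.6 CPM in vehicle skin) and Amy1 (15.0 and 36.3 CPM). Bhlha15 (0.173 and 0.256 CPM) and Smr3a (0.034 and 0.018 CPM) were near 0, and Dcpp1 was at 0 in all libraries. The sum therefore does not show that acinar cells were present. Amy1 was lower and Aqp5 higher (adjusted p = 0.0206 and 0.0281, edgeR). Aqp5 was not called in the mouse-blocked fit (adjusted p = 0.0662). General keratinocyte markers overlapped, at 13971 to 16431 CPM in AEW skin and 9213 to 14369 CPM in vehicle skin. Krt14 rose by a log2 fold change of 0.97 (adjusted p = 0.0319), and Krt15 was at -0.76 (adjusted p = 0.0506). Suprabasal markers summed to 12284 to 22203 CPM in AEW skin and 10403 to 13645 CPM in vehicle skin, with Krt1 up by a log2 fold change of 1.89 (adjusted p = 0.0171) and Dsc1 at 0.74 (adjusted p = 0.17). Hair follicle genes Msx2 and Hoxc13 had adjusted p of 0.198 and 0.228.

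The 6 markers of simple and secretory epithelium summed to 128 to 157 CPM in AEW skin and 128 to 141 CPM in vehicle skin, and Elf5 and Krt19 did not pass (adjusted p = 0.171 and 0.232, edgeR). Oral mucosa markers summed to 140 to 170 CPM in AEW skin and 110 to 161 CPM in vehicle skin, mostly Krt78, with Krt13 at 0.746 ± 0.35 CPM in AEW skin and 1.08 ± 0.20 CPM in vehicle skin. Neither gene passed (adjusted p = 0.369 and 0.397). Fibroblast markers summed to 7025 to 12264 CPM in AEW skin and 6706 to 8869 CPM in vehicle skin, with Pdgfra higher (adjusted p = 0.0352, and 0.0703 in the mouse-blocked fit) and Dcn not called (adjusted p = 0.172). Immune markers summed to 1164 to 2436 CPM in AEW skin and 1605 to 2979 CPM in vehicle skin, with S100a8 higher (adjusted p = 0.0434, and 0.0826 in the mouse-blocked fit) and Cd3e not called (adjusted p = 0.086). Schwann cell markers summed to 219 to 472 CPM in AEW skin and 438 to 460 CPM in vehicle skin, and Mbp was not called (adjusted p = 0.154). The part of these cell types in the tight junction values was not tested.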

How the data were processed

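RNA from cheek skin was selected for poly(A), and single-end reads of 50 bases were made on a DNBSeq platform, per the labels' protocols. The authors deposited estimated counts, TPM and FPKM per gene and library, with their means per group, per the file headers. The submitters' processing notes name HISAT and GRCm39. For the counting tool, annotation and strandedness the sources used here give nothing. FPKM values deposited by the authors were not used in any result.

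Estimated counts were rounded. After filterByExpr (minimum count 10) 15109 of 19309 genes remained, and libraries were scaled by TMM. AEW and vehicle were compared in edgeR (version 4.0.16, under R version 4.3.3) by its quasi-likelihood F test, with no other term in the model. DESeq2 1.42.0 and limma 3.58.1 on log2(TPM + 1), for genes with a TPM of at least 1 in 3 or more libraries, were alternatives, and fold changes on the TPM scale understate those of low genes. Each standard error (SE) is the log2 fold change over the root of its F statistic, intervals are at 95%, and binomial intervals cover counting error only. The count and TPM precision is limited by 3 libraries a group. All pairs of same-group libraries differed by more than sampling noise (lowest chi-square over its degrees of freedom 19.8).

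Both cheeks of a mouse share its number in the labels, so numbers pair libraries by animal. Mice 1, 2 and 3 are numbered here as in the sample titles, and the deposited columns number the same mice 2, 3 and 4. Across genes, the 2 cheeks of mice 1, 2 and 3 had correlations of -0.244, -0.165 and -0.246 in their departure from the group mean. An AEW and a vehicle cheek of different mice had 0.0496 to 0.181, so cheeks of the same mouse were not more alike by this measure. The main fit leaves the pairing out (1760 genes called), and the mouse-blocked fit called 888. Replicates were separate mice.

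The genes described, 5 further junction gene lists and 14 marker lists were chosen with earlier results of these data known. The 4 genes with the smallest p of each junction list, the 2 of each marker list and the 5 genes most like the tight junction gene with the smallest p are named, except 1 marker gene that is not reported here. None of 6 RNA quality and mitochondrial transcripts was analysed here. Promoter sequences are from RefSeq, GRCm38.p6, another build than the one in the notes, and no other coordinates are printed.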

Additional observations from a re-analysis of the deposited data

How the results depend on the processing

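Alternatives were DESeq2, upper quartile factors, no low-count filter, limma on TPM with pseudocounts of 1 and 0.1 and without a filter, library sizes without muscle genes, the mouse as a replicate block, and each library left out. Leaving out both libraries of a mouse, with the block, was added after seeing the data. For Cldn1, Cldn3, Cldn4, Cldn23, Ocln, Tjp3 and Cgn the direction was the same in all 17. That of Tjp1 reversed on TPM (log2 fold change 0.042, 0.044 and 0.042), and without 1 library or mouse it ran from -0.077 to 0.067, reversed without the AEW library of mouse 1 (0.018), the vehicle library of mouse 3 (0.067) or mouse 3 in both groups (0.0090).

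With DESeq2, 1364 genes were higher (733 in the main fit), 1 of the 9 tight junction genes was higher, 3 other claudins were lower, and 3 regulators were higher and 1 lower. With the replicate block 300 genes were higher and 588 lower (1027 in the main fit), 0 of the 8 tight junction genes were called, 0 other claudins, 0 membrane proteins and 2 scaffolds were lower, and 0 adherens genes and 2 regulators were higher. Upper quartile factors gave 2 lower claudins, and no filter 3 lower scaffolds. Limma on TPM gave 681, 669 and 465 lower genes at pseudocounts of 1, 0.1 and 1 without a filter, the last with 397 higher and 1 higher adherens gene, and 1 lower scaffold in each.

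Without 1 library, higher genes ran from 23 to 1197 and lower genes from 117 to 1041. Without mouse 1, 2 or 3 in both groups and with the replicate block, 1922, 112 and 0 genes were higher and 1588, 279 and 0 lower. Tight junction genes called higher ran from 0 to 1, and lower from 0 to 2 (2 without mouse 1). Lower other claudins ran from 0 to 3, lower membrane proteins from 0 to 1, higher scaffolds from 0 to 2 and lower ones from 1 to 5, higher adherens genes from 0 to 4 and higher regulators from 0 to 2. The cause was not tested. Depth limits Cldn7, with 5 to 15 counts a library.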
